A study of Mus musculus with 8 samples.

Results

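Interferon-stimulated genes, the genes that cells switch on when interferon binds its receptor, were followed as a set of 34 named genes in microglia of the demyelinated corpus callosum. The genes were taken by symbol from the deposited table of 46983 genes. Each of the 34 had a single row, and all 34 entered the tests. Total RNA came from microglia, the resident macrophages of the brain, in 8 libraries. The mice were FvB/C57BL6 hybrids that carried Cx3cr1-CreER, a tamoxifen-inducible Cre recombinase driven by the Cx3cr1 promoter, and either QKLoxP/+ (called WT) or QKLoxP/LoxP (called Qk-KO). All of them received tamoxifen at 8 weeks of age and then 0.2% cuprizone in the diet for 6 weeks, which kills oligodendrocytes and strips myelin. No group without cuprizone, without tamoxifen or without the Cre driver was used here. Cre driven by Cx3cr1 can also act in other macrophages and monocytes, and the WT mice carried 1 Qk allele that Cre can delete. By sample name, 4 libraries were WT and 4 were Qk-KO. The genotype field contradicted the name for 4 of the 8 libraries: it gave Qk-KO for named WT 2 and 3 and WT for named Qk-KO 1 and 3. Libraries are called by their names, both groupings were tested, and no difference is assigned to a genotype. The labels do not say that libraries are from separate animals, so p-values measure only how far these libraries scatter, and that scatter may be technical.

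Type I interferons bind a receptor made of the subunits IFNAR1 and IFNAR2. Kinases on the receptor phosphorylate STAT2, which joins IRF9 in a complex that binds interferon-stimulated response elements in promoters. Interferon-gamma uses a separate receptor and acts through gamma-activated sites. The induced genes encode sensors of foreign nucleic acid, enzymes and GTPases that block viral replication, and regulators that extend or end the response. In microglia, an interferon-responsive state is known from ageing, injury and demyelination.

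Promoters of the genes on which the results turn are shown first, because the members differed in whether they held these elements. RefSeq promoter sequences (GRCm38.p6, windows of 300 bases, from 250 before the start of transcription to 50 after it) matched 24 of the 34 genes. The core of the interferon-stimulated response element, GAAA, any 2 bases and GAAA again, was searched on both strands. It occurred in 14 of the 24 genes (58.3%), against 3.99% of the 27025 genes with a promoter. The letters TTCNNNGAA of the gamma-activated site, the same on both strands, occurred in 8 of the 24 (33.3%), against 9.55% of all. The 2 motifs overlapped in Bst2 and Ifitm3. The 250 bases before the start are printed 5′ to 3′ on the gene's own strand. Capitals mark the response element in the first 4 and the gamma-activated site in Irf1. On the strand shown, the element reads as its reverse complement in Gbp2, Ifit1 and Ifit3.
Gbp2 (chr3:142620413-142620662, plus strand): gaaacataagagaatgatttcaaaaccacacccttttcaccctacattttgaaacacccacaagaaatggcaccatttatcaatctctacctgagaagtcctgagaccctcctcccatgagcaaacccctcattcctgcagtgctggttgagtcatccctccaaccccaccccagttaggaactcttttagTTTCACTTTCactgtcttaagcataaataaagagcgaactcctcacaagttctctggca
Ifit1 (chr19:34640639-34640888, plus strand): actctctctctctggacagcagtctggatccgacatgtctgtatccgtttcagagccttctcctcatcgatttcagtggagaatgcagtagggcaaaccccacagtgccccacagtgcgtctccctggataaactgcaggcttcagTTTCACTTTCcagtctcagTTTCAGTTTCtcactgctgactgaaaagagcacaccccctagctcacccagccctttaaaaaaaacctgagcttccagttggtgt
Ifit3 (chr19:34583279-34583528, plus strand): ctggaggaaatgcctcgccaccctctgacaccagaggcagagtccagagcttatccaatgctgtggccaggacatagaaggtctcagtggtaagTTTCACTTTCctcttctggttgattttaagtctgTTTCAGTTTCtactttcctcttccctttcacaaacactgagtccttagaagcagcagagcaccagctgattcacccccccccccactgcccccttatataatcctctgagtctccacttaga
Isg15 (chr4:156200819-156201068, minus strand): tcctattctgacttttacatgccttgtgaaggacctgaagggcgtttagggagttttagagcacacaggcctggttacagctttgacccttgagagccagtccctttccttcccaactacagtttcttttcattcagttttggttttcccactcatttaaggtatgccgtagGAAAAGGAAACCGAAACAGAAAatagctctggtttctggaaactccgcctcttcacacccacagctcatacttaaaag
Irf1 (chr11:53769764-53770013, plus strand): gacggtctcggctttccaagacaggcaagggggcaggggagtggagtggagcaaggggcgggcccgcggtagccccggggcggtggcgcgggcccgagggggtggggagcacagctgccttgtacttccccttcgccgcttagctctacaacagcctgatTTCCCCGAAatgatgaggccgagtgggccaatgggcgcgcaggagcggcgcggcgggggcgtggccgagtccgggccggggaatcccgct
Gbp2, the member that differed between the named groups, held 1 element beginning 59 bases before the start. Ifit1 held 2, at 104 and 85 bases, and Ifit3 also held 2, at 156 and 122 bases. Isg15 held 3 that overlap in 1 run from 78 bases before the start. Irf1 held no response element in this window or in that of a second listed start, and 1 gamma-activated site, 90 bases before the start shown. These matches describe letters, not binding.

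All 34 genes were expressed in these microglia, 32 of them at 10 CPM, the library-scaled read share, or more on average over the 8 libraries. These mean CPM were computed here from the mean normalized signal that the authors deposited. Divided by the length of the annotated exons, the level of the 34 had a median of 12.6 CPM per kilobase, against 4.69 for 13416 genes of at least 1 CPM, and 29 of the 34 lay above that median. Ifi27l2a, an interferon-alpha-inducible gene (chromosome 12, 103442167 to 103443680, GRCm38), stood highest at 125.6 CPM per kilobase. Bst2, which encodes tetherin, a membrane protein that holds budding virus at the cell surface, followed at 106.6, and Irf1, a transcription factor strongly induced by interferon-gamma, at 89.5. Ifitm3, which blocks fusion of virus with endosomal membranes, and the receptor subunit gene Ifnar2 had 55.5 and 44.6. At the other end were Ifi44 at 0.616, Oas3 at 1.496, Oas2 at 2.50 and Ifit1 at 3.25 CPM per kilobase.

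**Figure D1:**
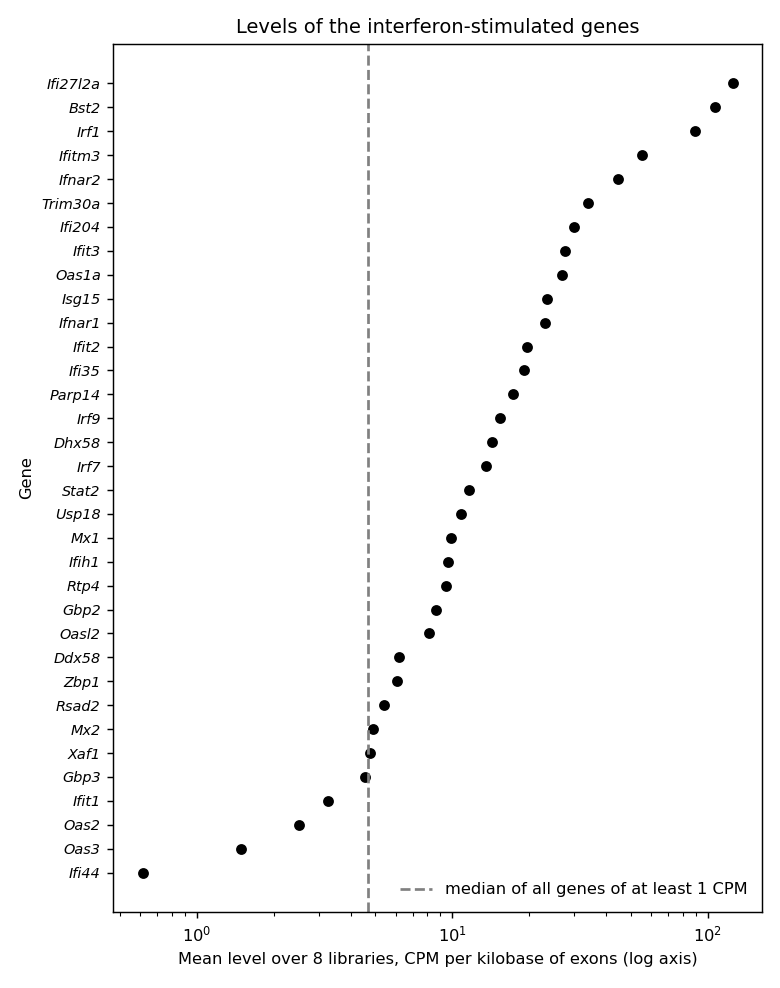
Mean level of each interferon-stimulated gene over the 8 libraries, in CPM per kilobase of exons on a log axis. The dashed line is the median of 13416 genes of at least 1 CPM, 4.69, and 29 of the 34 points lie to its right, from Ifi44 at 0.616 to Ifi27l2a at 125.6.

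Some levels rest on sequence that genes share. Of all stretches of 50 bases in the annotated transcripts of Oas1a, 57.6% also occur in Oas1g, and of those in Ifit3, 51.2% occur in Ifit3b. For Ifi204, 20.0% occur in other genes, chiefly Ifi211. The authors' way of dividing such reads was not stated in the labels, so values of these 3 genes are uncertain. The annotation lists Mx2 as a polymorphic pseudogene, and many laboratory strains carry inactivating changes in Mx1 and Mx2.

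Qk itself, the targeted gene, did not separate either grouping. Its values were 15.50, 15.38, 15.41 and 15.37 for the WT names and 15.59, 15.40, 15.69 and 15.29 for the Qk-KO names, so its RNA was not lower under the Qk-KO name (difference 0.08, 95% interval -0.11 to 0.27). By genotype field the difference was -0.16 (-0.33 to 0.0073), again with overlap. Which exons are deleted is not given in the labels, so a total over the gene may not show the deletion, and every direction by name below rests on the name alone. Rough totals of reads assigned to genes were 59.7 to 69.7 M for the WT name and 43.9 to 58.5 M for the Qk-KO name, without overlap. The 10 microglial markers, all of them tested, summed to 13636 to 18690 CPM per library. Sums per library were computed from the deposited log2 values, taken out of the log2 and put on the CPM scale. These values are shrunken towards the gene's mean at few reads, so the sums can understate differences between libraries. The sums were 82.9 to 532 CPM for 6 astrocyte markers, 120 to 411 for 5 erythroid, 193 to 265 for 6 endothelial, 124 to 307 for 6 oligodendrocyte, 90.6 to 169 for 6 border-associated macrophage, 8.71 to 325 for 6 neutrophil and 12.3 to 49.0 for 5 monocyte markers. Of 6 T and NK cell markers, 5 had a mean under 1 CPM. The 5 B cell markers summed to 147 to 184 CPM, with Ighm at a mean of 159.5 and 3 markers under 1 CPM. The 5 plasmacytoid dendritic cell markers summed to 30.5 to 51.1 CPM, with 3 under 1 CPM. In such bulk samples, fewer cells of a type and less RNA per cell cannot be told apart.

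Between the named groups, 1 interferon-stimulated gene was lower in Qk-KO and the other 33 were not called. Gbp2, a guanylate-binding protein GTPase that coats pathogen vacuoles and is strongly induced by interferon-gamma, had the lower level, by 1.45-fold per the authors' deposited table. On the regularized log2 scale the named WT libraries 1 to 4 had 10.69, 10.31, 10.58 and 10.43, and the named Qk-KO libraries 1 to 4 had 10.08, 9.88, 9.85 and 10.11. Every named Qk-KO library lay below every named WT library. Each named group held 2 libraries of each genotype field, so this separation by name necessarily holds within both fields and adds no further support. The authors' deposited table gave a log2 fold change of -0.54 with an SE of 0.12 and an adjusted p of 0.00123. On the regularized values the means were 10.50 ± 0.17 and 9.98 ± 0.13 (SD, n = 4 each). Limma, fitted to 22546 genes, gave a difference of -0.52 ± 0.10 (SE), a 95% interval of -0.74 to -0.30 and an adjusted p of 0.260, so the call rests on the authors' table. The exact two-sided permutation p was 0.0286, unadjusted and the smallest that 4 against 4 libraries allow. Summed microglial markers did not overlap between the named groups either, at 16992 to 18690 CPM in WT and 13636 to 16091 in Qk-KO. Of the 10 microglial markers, 5 were lower under the Qk-KO name without overlap. The endothelial sums, at 193 to 265 and 211 to 231 CPM, overlapped, but Flt1 made up most of them, at a mean of 184 CPM. The list was fixed with Flt1 in it, and the difference of Flt1 is not given here. The markers without Flt1 do not stand for the whole endothelial list. The 5 other endothelial markers all had negative differences, from -0.73 for Cldn5 to -0.46 for Ly6c1, and so did the 5 erythroid markers, from -0.67 for Hba-a2 to -0.62 for Hbb-bt. The named groups overlapped in each of these 10, and limma called none. The part of cell composition in the Gbp2 difference was not tested.

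The share of members called was small on every measure. By the authors' deposited table, 1 of 34 (2.94%) was lower, beside 0.671% of all 14150 genes with an adjusted p, and none was higher, beside 0.551%. The next smallest adjusted p there was 0.363, for Rsad2. Limma called 0 of the 34, beside 0.00444% of all genes tested. At an unadjusted p under 0.05 it had 2, Gbp2 and Rsad2 (5.88%), beside 8.26% of all genes. In 1 of the 34 (2.94%), Gbp2, the named groups did not overlap with Qk-KO lower, beside 2.7% of all genes. None had Qk-KO higher without overlap, beside 3.04%. The differences leaned to one side: 26 of 34 (76.5%) were negative, beside 51.2% of all genes tested. Their median was -0.09 on the log2 scale, beside -0.0044 over all genes. It was -0.04 without named WT 3, -0.14 without named WT 2, -0.16 without named Qk-KO 3 and -0.01 when libraries were centred on their medians. Centring moves the difference of every gene by the same amount. The median over all genes therefore moved equally, and the gap between both medians stayed as it was. No p is attached to this lean. The 95% interval of 34 of the 34 lay within 1 log2 unit of 0 and that of 23 within 0.5, so that smaller differences were not resolved in the rest.

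**Figure D2:**
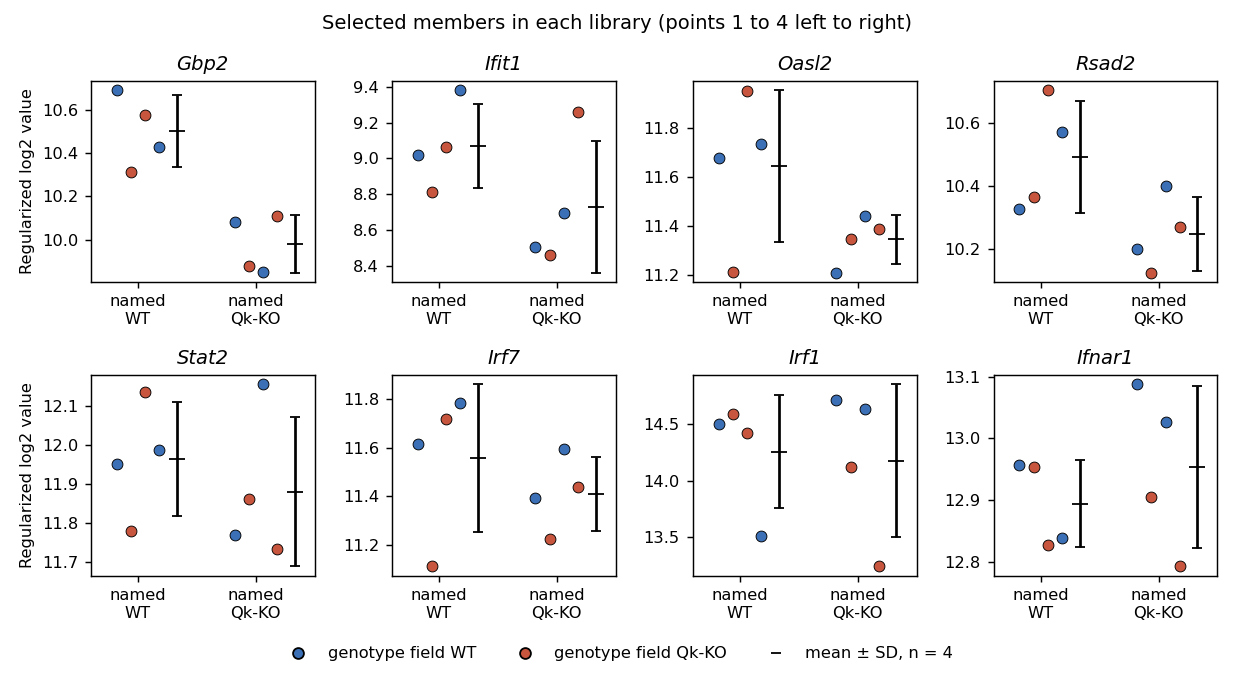
Regularized log2 values of 8 members in each library, libraries 1 to 4 from left to right within each named group, coloured by the genotype field, with the mean ± SD (n = 4) at the right of each group. Each panel has its own axis, which does not start at 0. The named groups are apart in Gbp2 (means of 10.50 and 9.98) and overlap in the other 7 genes, and Irf1 is low in named WT 4 and named Qk-KO 4.

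The receptor genes were among the steadiest. Ifnar1 (chromosome 16, 91485238 to 91507441) had values of 12.96, 12.95, 12.83 and 12.84 across the named WT and 13.09, 12.91, 13.03 and 12.79 across the named Qk-KO libraries. Its partner Ifnar2, on the same chromosome at 91372783 to 91405589, ran from 12.92 in named Qk-KO 4 to 13.10 in named Qk-KO 1. The groups overlapped in both, with differences of 0.06 (95% interval -0.10 to 0.22) for Ifnar1 and -0.03 (-0.15 to 0.09) for Ifnar2. These were among the narrowest intervals of the 34.

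Of the transcription factors, none was called. Stat2, the signal transducer specific to type I and III interferon, had 11.95, 11.78, 12.14 and 11.99 across the named WT and 11.77, 11.86, 12.16 and 11.73 across the named Qk-KO libraries. Each group thus held both a high and a low library, and the difference was -0.08 (-0.32 to 0.15). Irf9, the DNA-binding partner of STAT2, stayed between 12.12 and 12.32 in all 8 libraries (difference 0.02, -0.11 to 0.15). Irf7, which amplifies interferon production and is itself induced, had 11.62, 11.11, 11.72 and 11.78 across the named WT and 11.39, 11.22, 11.59 and 11.44 across the named Qk-KO libraries. Named WT 2 was the lowest of the 8, and the difference was -0.15 (-0.47 to 0.18).

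Irf1 had the largest spread of the 34, with an SD of 0.55 over the 8 libraries and a range of 1.47. Its values were 14.51, 14.59, 14.42 and 13.51 across the named WT and 14.71, 14.12, 14.64 and 13.24 across the named Qk-KO libraries. The low libraries were number 4 of each name, and the named groups overlapped (difference -0.08, -0.97 to 0.81). Some other values were extreme in the same pair of libraries. Of 10 immediate early genes looked up after the values of Irf1 were seen, 3 (Fosb, Junb and Atf3) were lower there than in each of the other 6 libraries, 1 (Ier2) was higher there than in each of them, at 14.54 in both, and the rest did neither. Fosb had 13.05 and 12.61 there and 14.12 to 14.71 elsewhere. The share of all genes that set this pair of libraries apart was not counted, so these counts describe only the genes looked up. Socs3, a feedback inhibitor of cytokine receptors, had 14.79 and 14.46 there and 15.26 to 15.85 in the rest. Summed astrocyte markers were 532 and 491 CPM in named WT 4 and named Qk-KO 4 and 82.9 to 376 in the others, and oligodendrocyte markers 307 and 261 against 124 to 139. Their part in the Irf1 values was not tested.

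None of the 4 cytosolic sensors of nucleic acid was called. Ddx58, which encodes RIG-I, ranged from 11.05 in named WT 2 to 11.46 in named WT 3, so both extremes lay in 1 named group (difference 0.02, -0.17 to 0.21). Ifih1, the gene of the long double-stranded RNA sensor MDA5, ranged from 11.91 to 12.20 (difference -0.06, -0.22 to 0.10). Dhx58, which encodes LGP2, a regulator of both, had 11.35, 11.08, 11.57 and 11.49 across the named WT and 11.23, 11.33, 11.57 and 11.34 across the named Qk-KO libraries. Named WT 3 and named Qk-KO 3 had the same top value to 2 decimals and the means differed by -0.0031. Zbp1, a sensor of Z-form nucleic acid that can trigger cell death, ranged from 9.90 in named Qk-KO 1 to 10.58 in named Qk-KO 3 (difference -0.15, -0.52 to 0.23).

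IFIT proteins bind viral RNA that lacks host cap marks, and OAS enzymes make the second messenger that activates RNase L. The 7 genes of these families had a median difference of -0.20, with 6 negative and 1 positive, and none was called. Ifit1 (chromosome 19, 34640871 to 34650009) had 9.02, 8.81, 9.07 and 9.38 across the named WT and 8.50, 8.46, 8.69 and 9.26 across the named Qk-KO libraries. Named Qk-KO 1, 2 and 3 lay below all named WT libraries, while named Qk-KO 4 lay above 3 of them (difference -0.34, -0.76 to 0.08; limma adjusted p = 0.667). Without named Qk-KO 4 that difference was -0.52 (limma adjusted p = 0.133).
Ifit2, from the same cluster on chromosome 19, had the widest range of the list after Irf1, 1.04, from 11.48 in named Qk-KO 1 to 12.52 in named WT 4 (difference -0.31, -0.76 to 0.14). Ifit3 ranged from 10.93 to 11.80 in the same pair of libraries (difference -0.18). Oasl2, an OAS-like protein gene, had 11.68, 11.21, 11.95 and 11.73 across the named WT and 11.21, 11.35, 11.44 and 11.39 across the named Qk-KO libraries. All but named WT 2 of the WT libraries lay above all named Qk-KO libraries (difference -0.30, -0.61 to 0.01).
Oas1a, Oas2 and Oas3 lie together on chromosome 5. Oas1a differed by 0.03, Oas2 by -0.20 and Oas3 by -0.20, each with an interval that includes 0, so their directions were not resolved. Oas2 was 9.28, 9.21, 9.73 and 9.28 across the named WT and 8.83, 9.57, 9.40 and 8.91 across the named Qk-KO libraries. The top value was that of named WT 3, and named Qk-KO 2 and 3 lay above 3 of the named WT libraries.

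Besides Gbp2, the antiviral GTPase genes were not called. Gbp3, which lies beside Gbp2 on chromosome 3 at 142560026 to 142573209, had 9.93, 9.82, 9.78 and 9.62 across the named WT and 9.64, 9.52, 9.48 and 9.94 across the named Qk-KO libraries. Named Qk-KO 4 was the highest of the 8, in contrast to Gbp2, and the difference was -0.14 (-0.39 to 0.11). Mx1, a dynamin-like GTPase that acts on viral nucleoproteins, ranged from 10.61 to 11.28 and differed by -0.04. Mx2 had the largest positive difference of the 34, 0.11 (-0.18 to 0.40), with values of 9.77, 9.80, 10.13 and 9.94 across the named WT and 9.73, 10.11, 10.30 and 9.94 across the named Qk-KO libraries. The groups overlapped over most of their range.

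Among membrane and lipid effectors, Rsad2 encodes viperin, an enzyme that makes a chain-terminating nucleotide. It had 10.33, 10.37, 10.71 and 10.57 across the named WT and 10.20, 10.12, 10.40 and 10.27 across the named Qk-KO libraries. Only named Qk-KO 3 lay within the WT range, and the difference was -0.24 (-0.46 to -0.02; limma adjusted p = 0.561). Rtp4, a chaperone of receptors that also restrains RNA viruses, ranged from 9.71 to 10.59 (difference -0.27, -0.66 to 0.13). Bst2 and Ifitm3 differed by 0.08 and -0.11, with ranges of 0.30 and 0.36 over the 8 libraries.

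Isg15, the ubiquitin-like protein that is attached to other proteins during the response, had 9.96, 9.77, 10.16 and 9.95 across the named WT and 10.15, 9.85, 10.16 and 9.71 across the named Qk-KO libraries. Group means lay 0.01 apart (-0.26 to 0.28). Usp18, which removes ISG15 and dampens signalling at IFNAR2, differed by -0.09 (-0.40 to 0.22). The other 7 induced genes had a median difference of -0.08, with 6 negative. Ifi44, the least abundant member, had 7.94, 7.55, 7.87 and 8.06 across the named WT and 7.23, 7.65, 7.95 and 7.48 across the named Qk-KO libraries (difference -0.27, -0.67 to 0.12). Xaf1, which promotes apoptosis, Ifi27l2a and Ifi204, a DNA-binding protein of the HIN200 family, differed by -0.18, -0.12 and -0.08. Trim30a, which restrains inflammatory signalling, and Ifi35, a leucine zipper protein gene, differed by -0.06 and -0.02, and Parp14, an ADP-ribosyltransferase, by 0.0050.

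Most members were high or low in the same libraries. Each value was set against the gene's mean over the 8 libraries, and the median of these deviations was taken per library. It was 0.0038, -0.15, 0.20 and 0.10 across the named WT and -0.16, -0.08, 0.11 and -0.06 across the named Qk-KO libraries. Both names thus held high and low libraries. By group the library medians were 0.04 ± 0.15 (SD, n = 4) for the WT name and -0.04 ± 0.11 (SD, n = 4) for the Qk-KO name. In named WT 3, 32 of the 34 genes lay above their own mean, and in named WT 4 and named Qk-KO 3, 25 each. In named WT 2 and named Qk-KO 1, 5 each did. For 21 of the 34 the lowest library was named WT 2 or named Qk-KO 1, and for 27 the highest was named Qk-KO 3 or one of named WT 3 and 4. Named WT 2 also had the highest sum of neutrophil markers, 325 CPM against 8.71 to 66.8 in the others. It was highest too for monocyte (49.0 CPM), border-associated macrophage (169) and erythroid markers (411). Named Qk-KO 1, low as well, had 42.9 CPM of neutrophil markers. The part of such cells in the low values was not tested.

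**Figure D3:**
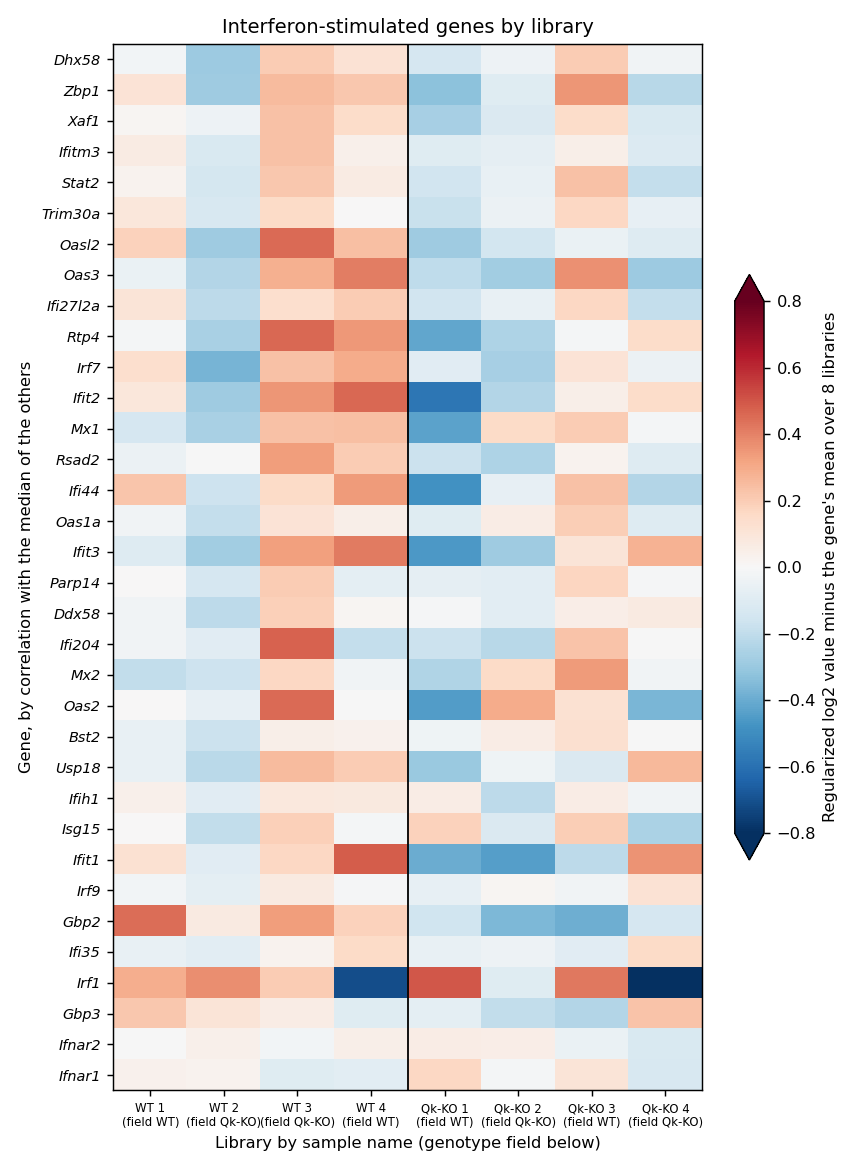
Deviation of each regularized log2 value from the gene's mean over the 8 libraries (colour, red higher and blue lower), genes ordered by their correlation with the median of the other members, libraries by name with the genotype field below. Red columns at named WT 3 and 4 and at named Qk-KO 3 and blue columns at named WT 2 and named Qk-KO 1 run through most rows, and Irf1, Gbp3, Ifnar2 and Ifnar1 are the bottom rows, with correlations of -0.15 to -0.41.

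As a description over the 8 libraries, which share each library's preparation and depth, the median correlation over the 561 pairs of members was 0.49, and 79.9% of pairs were positive. Against the median of the other members, Dhx58, Zbp1 and Xaf1 had the highest correlations, 0.92, 0.92 and 0.90, and 12 of 34 (35.3%) exceeded 0.8. Of 13463 genes of at least 1 CPM, 0.475% exceeded 0.8 against the median of the members. The 4 lowest values were weak or moderate and negative: Irf1 at -0.15, Gbp3 at -0.17, Ifnar2 at -0.33 and Ifnar1 at -0.41. Gbp2 had 0.30. Members with the response element in the promoter window had a median correlation of 0.75 (14 genes, -0.17 to 0.90) and those without it 0.59 (10 genes, -0.41 to 0.90). Ranges of both sets overlapped almost fully, and the 10 without it include both receptor genes and Irf1, whose promoter is shown above.

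By the genotype field, no member passed the test. Limma called 0 of 34, beside 0% of 22546 genes, and none had an unadjusted p under 0.05, beside 2.67%. No member's groups were without overlap, beside 0.923% lower and 0.931% higher among all genes. The median difference was -0.03, beside 0.0021 over all genes, with 23 of 34 (67.6%) negative, beside 49.3%. Leaving out 1 library at a time moved that median from -0.10 to 0.0057. The largest negative difference was -0.26 for Oas3 (-0.66 to 0.14), and the largest positive one was 0.16 for Oas2 (-0.26 to 0.59), a neighbouring gene. Both intervals include 0. Oas3 had 9.15, 9.61, 8.996 and 9.56 in the libraries whose field gave WT (1 and 4 of the WT name, 1 and 3 of the Qk-KO name). It had 8.97, 9.48, 8.92 and 8.91 in those whose field gave Qk-KO (2 and 3 of the WT name, 2 and 4 of the Qk-KO name), so the groups overlapped. Gbp2 was 10.26 ± 0.37 and 10.22 ± 0.30 by field (SD, n = 4 each), a difference of -0.04 (-0.50 to 0.41). The difference by name was also compared between the fields. No member passed that limma interaction test (smallest adjusted p = 0.438, for Irf1), beside 0.0222% of all genes.

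**Figure D4:**
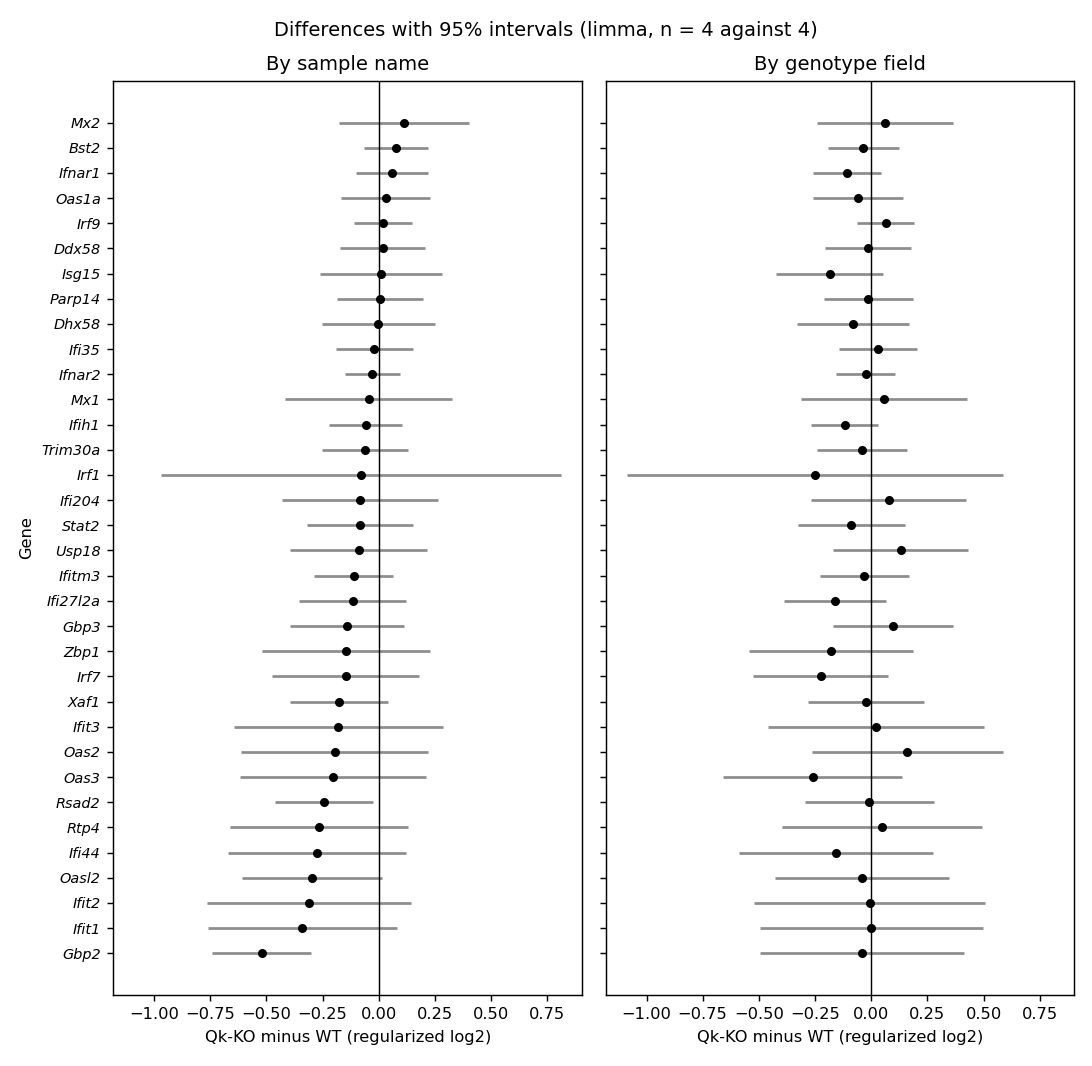
Difference between Qk-KO and WT for each member on the regularized log2 scale, by sample name on the left and by genotype field on the right, with 95% intervals from limma (4 against 4 libraries). Negative values are lower in Qk-KO. By name the intervals of Gbp2 (-0.74 to -0.30) and Rsad2 (-0.46 to -0.02) exclude 0, by field none does, and the interval of Irf1 is the widest in both panels.

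The rest of the interferon pathway was read from a list of 103 further genes, of which 99 were in the table and 90 were tested. By the authors' deposited table, 2 of the 86 with an adjusted p were lower in named Qk-KO (2.33%, beside 0.671% of all genes) and 0 were higher. These were Cxcl9, a T-cell chemokine induced by interferon-gamma, and Tlr3, the endosomal receptor for double-stranded RNA. Cxcl9 was 8.85, 8.998, 9.003 and 8.96 across the named WT and 8.12, 8.24, 7.75 and 8.25 across the named Qk-KO libraries, and its adjusted p in the authors' deposited table was 3.36e-07, with a level 1.85-fold lower. Tlr3 was 10.60, 10.57, 10.87 and 10.85 across the named WT and 10.35, 10.18, 10.17 and 10.44 across the named Qk-KO libraries, and its adjusted p in the authors' deposited table was 0.0120, with a level 1.37-fold lower. Neither gene's groups overlapped, as in Gbp2. Of the 90 tested, 4 (4.44%) were lower in named Qk-KO without overlap, beside 2.7% of all genes. Higher without overlap were 0, beside 3.04%. Limma called 0 of the 90, with 8 at an unadjusted p under 0.05 (8.89%, beside 8.26%).

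Ligand RNA was scarce. Of 10 interferon ligand genes, 7 were listed at 0 in all libraries and 2 were tested. Ifnb1, the gene of interferon-beta, averaged 0.566 CPM, with 4.53, 4.69, 4.94 and 4.69 across the named WT and 4.74, 5.32, 5.47 and 5.09 across the named Qk-KO libraries. Only named Qk-KO 1 lay within the WT range, and the difference, the largest positive one of the list, was 0.45 (-0.0049 to 0.90; limma adjusted p = 0.607). Ifng averaged 0.280 CPM.

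The 16 genes linked to interferon-gamma had a median difference of -0.20 by name, with 11 negative, and of 0.11 by genotype field, with 2 negative. Tgtp1 and Tgtp2, T-cell-specific GTPase genes, had the largest negative differences by name after Cxcl9, at -0.47 and -0.44, and the chemokine genes Cxcl10 and Ccl12 the largest positive ones after Ifnb1, at 0.21 and 0.20. None of these 4 was called. In Tgtp1, named Qk-KO 4 had the highest value of the 8, 8.32, and the other Qk-KO libraries, at 7.29 to 7.65, the lowest. The 44 other induced genes had a median of -0.07 by name. Adar, which edits double-stranded RNA, Herc6, the ligase for ISG15, and Sp100, a nuclear body protein, followed the library medians of the members most closely of the 90, with correlations of 0.99, 0.92 and 0.90 over the 8 libraries, given as a description.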

How the data were processed

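RNA of 8 libraries was quantified by the authors. Per the submitters' processing notes, FastQC, HISAT2, StringTie and DESeq2 were used with the build mm10, without versions or roles. The deposited values per library are on a log2 scale and behave as regularized log2 values, shrunken towards the gene's mean at few reads, so small counts understate a change. Per the file headers, the authors also deposited a mean normalized signal, a log2 fold change with its SE, a test statistic (a score) and p-values, raw and adjusted. Counts per library were not used here.

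Genes entered the fit if their normalized value, before the log2, reached 1 in 4 or more libraries. These 22546 genes were fitted with limma 3.58.1 in R 4.3.3 (trend, robust, no pseudocount). Adjustment was by Benjamini-Hochberg over all genes tested, with a threshold of 0.05. The fit was run on simulated data with known changes and noise drawn separately for each gene. Such data lack the variation that genes share over libraries, and the recovery is not given here. Positive values in the authors' table follow the sample names: over 5232 genes with an SE under 0.1 the correlation with the limma difference was 0.9997. Coordinates and exon lengths came from the GENCODE M21 annotation on GRCm38, matched by identifier without version. Library totals are rough estimates, from the step of 1 read in genes seen in a single library. Members and lists were chosen with earlier results of these data known. All members may be named by rule. Of other pathway genes, those called and the 3 largest differences each way are named. The closest followers of the member median were chosen after their values were seen. So was Socs3, named beside Irf1. Ifng is named as a ligand, and Oas1g, Ifit3b and Ifi211 for shared sequence. A gene of the pathway list is not reported here by name. Alternatives covered limma settings, filters, scaling, left-out libraries, the replicate number and both labels.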

Additional observations from a re-analysis of the deposited data

Results flagged for a closer look

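A value far from the other 3 of its named group was found in 3 of 68 groups examined (34 genes in both named groups), where chance sets apart about 1 in 20. The test compares the gap to the nearest value with the whole range of the group against Dixon's 95% critical value. Irf1 in named WT 4 stood at 13.51, against 14.42 to 14.59 in the other named WT libraries. Oas2 in named WT 3 stood at 9.73, against 9.21 to 9.28. Oas3 in named Qk-KO 3 stood at 9.56, against 8.91 to 8.996.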

How the results depend on the processing

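No member was called by limma under any setting; the smallest adjusted p was 0.0742, for Gbp2 without named Qk-KO 4, and leaving out single libraries gave Gbp2 differences of -0.58 to -0.46 (limma adjusted p up to 0.793). Limma called 1 gene by name, 0 at a minimum of 1 CPM (1392 at an unadjusted p under 0.05), 3 in the 4 libraries whose labels agree and 0 to 7 with 1 library left out. By genotype field it called 0 (602 at an unadjusted p under 0.05) and 0 to 1 with 1 left out, and with the field as a term 1 and 0 to 3. The authors' deposited table called 173 genes, 291 at an adjusted p under 0.1, against 1 by limma. Same-numbered libraries correlated at 0.05, 0.15, 0.27 and 0.46 after removing group means, so the numbers were not taken as pairs; with the replicate block limma called 1 gene by name and 3 by genotype field, with Gbp2 at an adjusted p of 0.184. Of the 8 libraries, 6 correlated best with their own number, a hint from the data and not from the design; named WT 2 and named Qk-KO 1 did not.

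The median of the members by name ran from -0.16 to -0.04 with 1 library left out, and was -0.15 where labels agree. Centring on medians turned the sign of Mx1 (0.032), Ifi35 (0.057), Dhx58 (0.074), Ifih1 (0.018), Trim30a (0.016) and Ifnar2 (0.048), quantile normalization that of Isg15 (-0.0065) and Parp14 (-0.019). In the libraries whose labels agree, Isg15 (-0.18), Oas1a (-0.029), Mx1 (0.014), Usp18 (0.041), Ifi35 (0.0098), Parp14 (-0.0078) and Ifnar1 (-0.049) changed sign. Leaving out 1 library turned the sign of 12 members, none called: Irf1 (-0.33 to 0.23), Isg15 (-0.056 to 0.094), Irf9 (-0.019 to 0.045), Oas1a (-0.031 to 0.072), Ddx58 (-0.050 to 0.084), Parp14 (-0.051 to 0.073), Mx1 (-0.14 to 0.092), Ifi204 (-0.17 to 0.061), Dhx58 (-0.10 to 0.064), Ifi35 (-0.073 to 0.028), Ifih1 (-0.098 to 0.00043) and Ifnar2 (-0.054 to 0.0059). Centring moves the difference of every gene by the same amount, so its sign changes fell in members with differences near 0. The cause of the other changes was not tested.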
